A study of Mus musculus x Rattus norvegicus with 2 samples.

Results

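Alveolar fibroblasts of mouse origin were examined in the lungs of mouse-rat interspecies embryos at E20.5 (days of embryonic development). A barcode was kept when it held at least 500 genes, at most 20% mitochondrial UMIs (unique molecular identifiers, 1 per captured RNA molecule) and at least 90% of its UMIs on mouse features. Among those barcodes the alveolar fibroblasts were chosen by their measured UMIs of collagen and marker genes, with limits described below, so the levels of those genes are a description. The limits gave 1980 cells of 22047 deposited barcodes, with 1449 in the control library and 531 in the mutant library. The control library came from a lung chimeric for mouse and rat cells in a wild-type (wt) rat host, and the mutant library from the mouse lung of a rat host lacking Nkx2-1 (Nkx2-1-/-), the transcription factor that specifies lung epithelium. The labels give the strains as C57BL/6 and SD for both, and both were made with the 10x Genomics 3' v3 chemistry. How many embryos went into each library is not given in the sources used here. There was 1 library a group, so no difference between the libraries has a replicate check, no p-value is given, and the 95% intervals printed here cover counting error only.

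Alveolar fibroblasts lie in the walls of the air sacs beside the alveolar epithelium and the capillaries. They are known for the transcription factor Tcf21, for the Wnt ligand Wnt2 and the fibroblast growth factor Fgf10, which act on the epithelium, and for building interstitial matrix; the lipid-storing lipofibroblasts of the newborn lung belong to the same lineage. Alveolar myofibroblasts, the neighbouring contractile population, express Pdgfra, Aspn and Hhip and lay down elastin at the tips of the forming septa. Adventitial fibroblasts, marked by Dpt and Mfap5, surround vessels and airways.

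The gate required 30 or more UMIs of the fibrillar collagens Col1a1, Col1a2 and Col3a1 and 3 or more of Tcf21 and Wnt2. It allowed at most 2 of the epithelial gene Epcam, at most 2 of the endothelial genes Cdh5 and Pecam1, fewer than 10 of the smooth muscle genes Actg2, Myh11 and Cnn1, fewer than 5 of Aspn, Hhip and Fgf18, and fewer than 4 of Mfap5, Dpt and Cxcl14. Up to the smooth muscle limit the libraries kept similar numbers, 1810 cells of 7414 mouse barcodes in the control and 1978 of 8854 in the mutant. The last 2 limits then removed unequal shares. The Aspn, Hhip and Fgf18 limit took 13.4% of the control cells and 37.9% of the mutant cells, and the Mfap5, Dpt and Cxcl14 limit took 7.59% and 56.8% of those left.

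**Figure D1:**
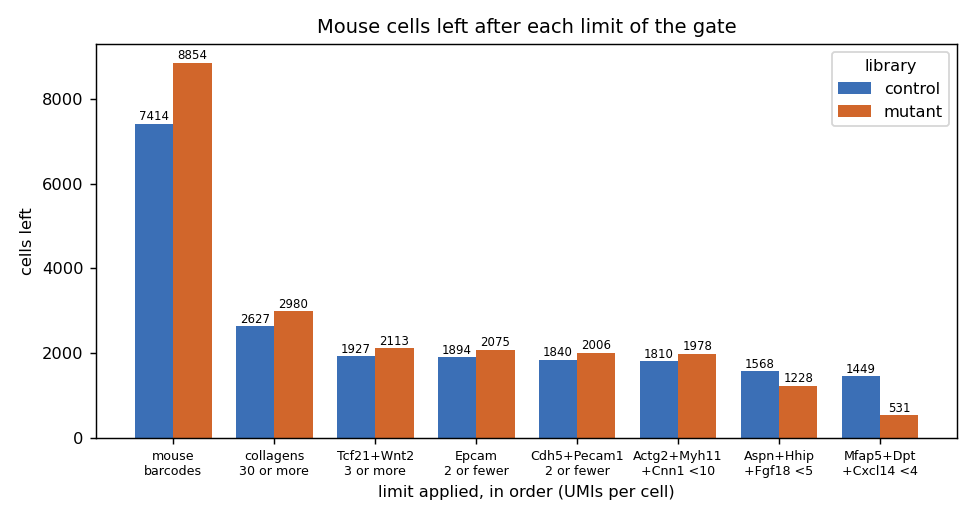
Bars give the mouse cells left after each limit of the gate, applied in order from left to right (vertical axis, number of cells; blue, control library; orange, mutant library). The libraries stay close until the last 2 limits, after which 1449 control and 531 mutant cells remain.

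Most of the mutant cells were lost to 1 gene. Among the 1810 and 1978 cells standing before the last 2 limits, Dpt, which encodes the matrix protein dermatopontin, was at 41.1 CPM (counts per 1000000 mouse UMIs) in the control and 380 CPM in the mutant. Dpt alone passed its limit in 62 control cells (3.43%) and in 1059 mutant cells (53.5%). Hhip, an inhibitor of hedgehog ligands, was at 115 and 256 CPM in the same cells, and Aspn, a small leucine-rich proteoglycan, at 52.3 and 104 CPM. The mutant members are therefore the Dpt-low side of the Tcf21 and Wnt2 cells, and the shares of gated cells, 19.5% of mouse barcodes in the control (exact binomial interval 18.65 to 20.47) and 6.00% in the mutant (5.51 to 6.51), are not compared between libraries. Mutant cells just outside that limit, with 4 or 5 UMIs of its genes, held Npnt at 491 CPM, Limch1 at 1911 CPM and Gyg at 1249 CPM. The 235 mutant cells just inside it, with 2 or 3 such UMIs, held 439.5, 1843.5 and 1279 CPM of the same genes. In the control the 55 cells just outside held Npnt at 681 CPM and Limch1 at 799 CPM, against 637 and 687 CPM in the 129 cells just inside. At the lower limit, control cells with 1 or 2 UMIs of Tcf21 and Wnt2 had Npnt at 232 CPM, and those with 3 or 4 had 341 CPM.

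The libraries held 11129 and 10918 barcodes and 123047433 and 103627303 UMIs. Rat Nkx2-1 had 5103 UMIs over all control barcodes and 1 over all mutant barcodes, while mouse Nkx2-1 had 18070 and 9942. The median member had 10047 UMIs (control) or 11485 UMIs (mutant), with median mitochondrial shares of 3.08% and 4.04%. Over all members' UMIs summed, ribosomal protein genes made 20.6% and 15.7% and rat features 0.801% and 0.598%. No member barcode was shared between the libraries, although 47 barcodes of the whole series were. EGFP was read in 1449 of 1449 control members at 5959 CPM and in 529 of 531 mutant members at 3985 CPM (3937 to 4035). Tomato had 0 UMIs in both, which allows up to 0.191 and 0.470 CPM at 3 counts.

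The label was checked on the 2 given markers that the gate did not use. Npnt, the integrin ligand nephronectin (mouse build mm10, chr3:132881745-132950291), had a UMI in 90.8% of control members and 94.2% of mutant members, against 10.0% and 8.44% of gated endothelial cells, whose median depths were 6623 and 7900 UMIs. Control members held it at 433 CPM (422 to 443) and mutant members at 422 CPM (406 to 438), so the intervals overlapped. Limch1, an actomyosin regulator (chr5:66745827-67057158), had a UMI in 89.0% and 99.8% of members and in 44.9% and 54.0% of endothelial cells. Control members held it at 512 CPM (501 to 524) and mutant members at 1729 CPM (1697 to 1761). Of the gate genes, Tcf21 (chr10:22817281-22820174) stood at 517 CPM in the control and 793 CPM in the mutant, and Wnt2 (chr6:17988940-18030585) at 353 and 334 CPM. Gated myofibroblasts held Npnt at 63.4 and 57.4 CPM and Limch1 at 31.7 and 66.9 CPM. Gated adventitial fibroblasts held Npnt at 499 and 292 CPM and Limch1 at 160 and 1156 CPM, so Npnt does not set the members apart from that gate, nor does Limch1 clearly do so in the mutant. The cells are called alveolar fibroblasts throughout, a name that against adventitial cells rests on the gate genes.

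Other genes known from this cell type were mostly higher in the mutant library. Mfap4, a microfibril-associated glycoprotein, was at 5913 CPM in the control and 9439.8 CPM in the mutant. Fgf10, the growth factor that supports epithelial progenitors (chr13:118669791-118792115), was at 95.9 CPM (91.1 to 100.9) and 246 CPM (234 to 259). Itga8, the integrin chain that binds nephronectin, was at 118.5 and 406 CPM. The counting intervals of these 3 genes did not overlap between the libraries, but the share of all measured genes doing so was not counted. Fgf10 stayed below 2-fold on the scale corrected for intron length that is described below. Fgfr4, a fibroblast growth factor receptor, was at 56.2 and 177 CPM, Col13a1, a transmembrane collagen, at 265.5 and 497 CPM, and Gyg, the primer of glycogen synthesis, at 1002 and 1240.4 CPM. Inmt, a methyltransferase of the mature alveolar fibroblast (chr6:55170626-55175043), had 2 UMIs in all control members and 181 in the mutant members, or 0.127 CPM (0.0154 to 0.459) and 28.3 CPM (24.4 to 32.8), so it counted as measured only through the mutant level and could not have been called lower. It was read in 8.66% of mutant members and in 0.414% of mutant endothelial cells. Only Npnt and Adh1, an alcohol dehydrogenase at 762 CPM in the control and 701 CPM in the mutant, were lower in the mutant by plain level among the 12 list genes outside the gate.

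**Figure D2:**
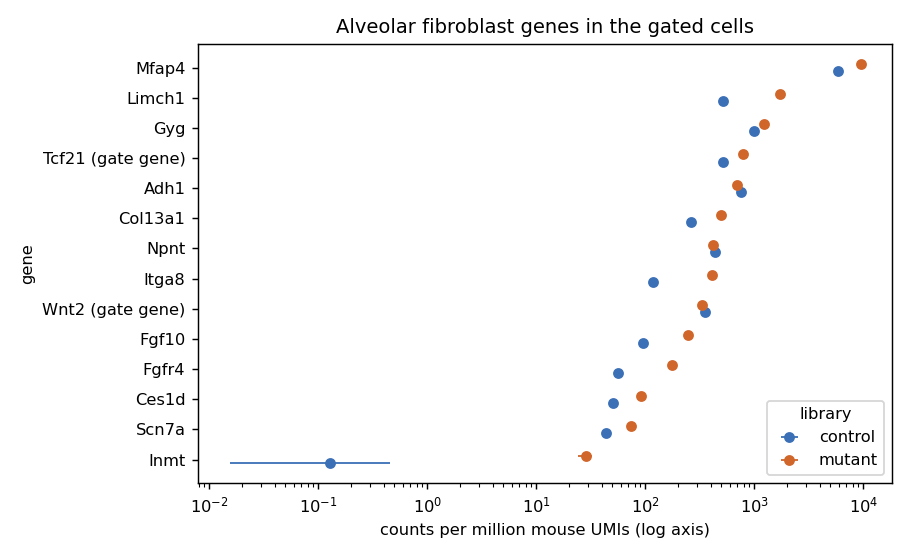
Points give the level of each alveolar fibroblast gene in the gated cells on a log axis (CPM; blue, control; orange, mutant), with exact Poisson 95% intervals, most of them narrower than the points. Inmt lies at 0.127 CPM in the control and 28.3 CPM in the mutant, and Npnt, Wnt2 and Adh1 lie close together in both.

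A shift by gene structure ran through the whole comparison. Over all 9483 measured genes (10 CPM or more in either library, gate genes left out), the median log2 difference, mutant minus control with 10 CPM added to each level, was -0.14. By summed intron length it was -0.42 for genes up to 2 kb and 1.26 for genes over 200 kb. Per the file headers, Cell Ranger 6.0.1 made one matrix (control) and Cell Ranger 7.0.1 the other (mutant), and from the later version on intronic reads are counted by default. The software version and the host genotype cannot be told apart in it. Each gene is therefore given mainly as a relative log2 difference, its own difference less the median of the measured genes in the same one of 20 bins of intron length, for which the median over all genes is 0 by construction. On that scale 577 genes (6.08%) were 2-fold or more higher in the mutant and 364 genes (3.84%) were 2-fold or more lower. Without the correction the numbers were 894 (9.43%) and 556 (5.86%). Of the 12 alveolar fibroblast genes 11 lay above 0, against 49.9% of all measured genes, and 3 were 2-fold or more higher and 0 lower, with a relative median of 0.58 and a plain median of 0.80. Limch1, with 301 kb of intron, had a plain difference of 1.73 and a relative one of 0.39.

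The genes highest in the mutant members fell into 2 kinds. Hs6st3, Cmss1, Galnt2l and Prkg1 each span more than 300 kb of intron, in the bin where the correction is coarsest. Hs6st3 was at 16.5 CPM in the control and 1843 CPM in the mutant, and Prkg1 at 28.5 and 982 CPM. Cmss1 was at 49.8 and 2964 CPM in members, and in gated endothelial cells it was at 34.7 and 3873 CPM. Galnt2l had 0 UMIs in the control members and 485 CPM in the mutant, at least 2541-fold higher against a floor of 3 counts in the control library, and had 0 CPM in all 5 other control cell types examined. Within the mutant library Hs6st3 was at 28.4 CPM in gated epithelial cells and 47.6 CPM in endothelial cells, and Prkg1 at 63.9 and 348 CPM. In mutant myofibroblasts these 2 genes were at 432 and 782 CPM. The differences between libraries of all 4 genes are given as values and not read further.

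The rest had shorter introns. Clec3b, encoding tetranectin (chr9:123150946-123157432), was at 27.3 CPM (24.75 to 29.98) in control members and 245 CPM (233 to 258) in mutant members, a relative difference of 3.21. Its levels in gated myofibroblasts were 5.41 and 9.23 CPM, and in gated adventitial fibroblasts, where it is a known marker, 18.5 and 156 CPM. Dpep1, a membrane dipeptidase, was at 32.0 and 287 CPM, and Cp, the copper-carrying ferroxidase ceruloplasmin, at 22.0 and 271 CPM. Slc10a6, a transporter of sulphated steroids, was at 7.82 and 123 CPM. These 4 had folds of 8.98 to 15.7. They were named for their large relative differences, so their non-overlapping counting intervals follow from that choice. The nuclear receptors Nr4a2 and Nr4a3, which are transcribed quickly after stimulation, were at 27.0 and 224 CPM and at 6.61 and 104 CPM. Slc10a6 and Nr4a3 were measured only through their mutant levels, so they could not have been called lower. Txndc11, an endoplasmic reticulum thioredoxin-domain protein, was at 18.9 and 198 CPM, and Prickle1, a planar cell polarity protein, at 19.6 and 263 CPM.

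Dropping the last 2 limits of the gate, which brings back the Dpt-high cells, changed the size of many differences. Of the 577 higher genes 529 were still 2-fold higher among those 1810 and 1978 cells, and of the 364 lower genes 338 were still lower. Clec3b was then at 34.4 and 314 CPM, Dpep1 at 44.25 and 329 CPM and Inmt at 53.2 CPM in the mutant. The mutant levels of Mki67, Top2a and Ube2c, genes of dividing cells, were 24.98, 49.3 and 19.99 CPM in the wider cells, each lower than in the members. Dlk1, a fetal growth gene, was at 679 and 256 CPM. The G2 and M phase list had a relative median of -2.16 there, against -1.61 in the members.

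Genes of cell division were lower in the mutant members. All 14 genes of the G2 and M phase list were 2-fold or more lower, with a relative median of -1.61, and 8 of 12 S phase genes were, with a median of -1.22. The share over all measured genes was 3.84%. Mki67, the proliferation antigen, was at 270.5 CPM in the control and 46.8 CPM in the mutant. Top2a, the topoisomerase that untangles replicated DNA, was at 389 and 97.4 CPM. Ube2c, a ubiquitin carrier of the anaphase-promoting complex, was at 337 CPM (328 to 346) and 51.8 CPM (46.4 to 57.7), and Pcna, the replication clamp, at 137 and 37.4 CPM. Mcm5, a subunit of the replicative helicase, was at 59.5 and 5.32 CPM. Several genes named for their low mutant values belong to the same processes: Pclaf, a partner of Pcna, at 294 and 34.3 CPM, Stmn1, a microtubule destabiliser, at 953 and 158 CPM, and Lmnb1, the nuclear lamina protein, at 266 and 54.5 CPM. Ccdc34, at 175 and 56.0 CPM, and Erh, at 279 and 40.2 CPM, were also among the 12 lowest. The G2 and M genes were also lower in the mutant in gated epithelial cells (relative median -2.52), endothelial cells (-0.55), immune cells (-1.10), myofibroblasts (-3.10) and the few adventitial fibroblasts (-2.33).

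Cell by cell, the lower level went with fewer cells that held these RNAs. After each cell was thinned to 5000 UMIs, which left out 43 control and 4 mutant cells, 45.5% of control members (42.8 to 48.1) held 2 or more UMIs of the G2 and M list, against 7.78% of mutant members (5.64 to 10.4). Without thinning the shares were 56.0% and 18.5%. Cells with 0 such UMIs made up 34.7% of the control and 74.0% of the mutant. In the mutant the top 10% of cells carried 90.5% of the list's UMIs, and in the control 51.8%. In a separate draw of the thinning 514 control and 391 mutant cells were at 0, and among them the S phase list still had a relative median of -0.86, with 3 of 9 measured genes 2-fold lower. The lower count there was 227 genes against 364 in all members, and 160 of the 364 were among them. The share of all genes measured in these cells that was 2-fold lower was not counted. The 3 of 9 therefore has no share to be set against.

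**Figure D3:**
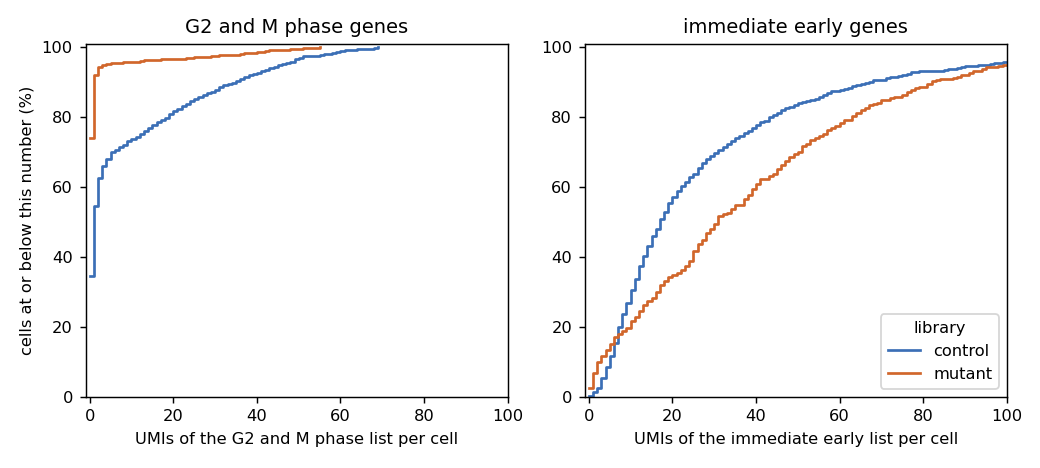
Step lines give the percent of alveolar fibroblasts at or below a number of UMIs per cell, after thinning to 5000 UMIs, for the G2 and M phase list (left) and the immediate early list (right), in control (blue) and mutant (orange); the horizontal axis ends at 100. At 1 UMI the mutant line of the G2 and M list is already above 90%, while the immediate early median is 17 UMIs for control cells and 31 for mutant cells.

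Replication-linked histone genes were among the lowest in relative value. Hist1h2ap was at 1106 CPM in control members and 11.0 CPM in mutant members, H2ac8 at 421 and 23.2 CPM, and the linker histone gene H1f5 at 732 and 133 CPM. Of 6 measured histone genes 4 were 2-fold or more lower, against 3.84% of all measured genes. H4c4 did not share this and was at 99.99 and 96.3 CPM. Hist1h2ap was low in every mutant cell type, for example at 1882 and 2.60 CPM in epithelial cells. The gene lies in a cluster of near-identical copies, so its counts are uncertain. The histone list's relative medians were -2.81 in epithelial cells, -3.045 in myofibroblasts, -2.07 in adventitial fibroblasts and -1.67 in immune cells. In endothelial cells the median was 0.07, with 3 of 7 genes 2-fold higher and 2 lower. Software version and host cannot be told apart here.

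Several heat shock genes were lower as well. Hspa1a, the inducible HSP70 chaperone, was at 919 CPM in control members and 22.4 CPM in mutant members. Its near-identical neighbour Hspa1b was at 339.9 and 4.54 CPM, and reads may be split between the pair. Hsph1 was at 84.3 and 14.2 CPM and Hsp90aa1 at 891 and 264 CPM. These 4 were the 2-fold lower genes among 13 of the unfolded protein and heat shock list, whose relative median was -0.15. The share over all measured genes was 3.84%. The heat shock gene Dnajb1, at 120.8 and 100.3 CPM, did not pass 2-fold. The endoplasmic reticulum chaperone gene Hspa5 was at 564 and 672 CPM. Hspa1a was also lower in the mutant in endothelial cells, at 2521 and 71.3 CPM, and in epithelial cells, at 436.5 and 29.1 CPM.

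Immediate early genes, which respond within minutes to growth factors and to tissue dissociation, were higher in the mutant members. Of 13 measured genes 7 were 2-fold or more higher and none lower, against 6.08% and 3.84% of all measured genes. The list had a relative median of 1.39 and a plain one of 0.94. Fos was at 807 CPM in the control and 1862 CPM in the mutant, Egr1 at 312 and 832 CPM, Junb at 411.5 and 1109 CPM, and Zfp36, which destabilises cytokine mRNAs, at 147 and 484 CPM. Jun did not follow and was at 1979 and 1442 CPM, nor did Atf3, at 67.4 and 40.1 CPM. The antiproliferative gene Btg2 was at 362 and 1373 CPM. The list's relative medians in other cells were 1.68 in myofibroblasts, 0.44 in adventitial fibroblasts, 0.27 in epithelial cells, 0.23 in immune cells and 0.04 in endothelial cells.

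Glucocorticoids drive late lung maturation, and fibroblasts reactivate the hormone through Hsd11b1. Hsd11b1 (chr1:193221634-193264075) was at 139 CPM (133 to 145) in control members and 689 CPM (669 to 710) in mutant members, a relative difference of 2.23. It had a UMI in 49.9% of control and 94.7% of mutant members, against 2.92% and 6.53% of endothelial cells. Of 12 measured glucocorticoid genes 5 were 2-fold or more higher and none lower, against 6.08% and 3.84% of all measured genes, with a relative median of 0.81. Beside Hsd11b1 they were Klf9, a direct target of the receptor, at 38.65 and 145 CPM, the metallothionein Mt1 at 34.1 and 106 CPM, Errfi1, an inhibitor of the EGF receptor, at 18.1 and 55.25 CPM, and Cebpd, a transcription factor, at 544 and 1091 CPM. The classical targets Tsc22d3, at 65.1 and 70.75 CPM, and Fkbp5, at 41.3 and 73.1 CPM, had relative differences of -0.14 and 0.18. The receptor gene Nr3c1 was at 172 and 238 CPM. The list's relative median was 1.45 in myofibroblasts, 0.57 in epithelial cells, 0.43 in endothelial cells, 0.43 in immune cells and 0.15 in adventitial fibroblasts, where 7 of 14 genes lay above 0.

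Matrix genes moved in both directions. Eln, which encodes tropoelastin (chr5:134702593-134747323), was at 790.4 CPM (777 to 805) in control members and 3569 CPM (3523 to 3616) in mutant members, a 4.52-fold difference. Fbln5, which helps assemble elastic fibres, was at 35.3 and 132 CPM. The microfibril gene Fbn2, the fetal fibrillin, went the other way, at 203 CPM in the control and 52.3 CPM in the mutant, as did Fbln1, at 212 and 77.6 CPM. Fbn1, the fibrillin of later life, was at 249.9 and 462 CPM, with a relative difference of 0.13. In all, 3 of 13 elastic fibre genes were 2-fold higher and 2 were 2-fold lower, against 6.08% and 3.84% of all measured genes. In the 34 mutant adventitial fibroblasts Fbn2 was at 328 CPM, against 264.9 CPM in 18 control cells.

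The glycoproteins of provisional matrix were also split. Fn1, fibronectin (chr1:71585520-71653200), was at 746 CPM in the control and 3285 CPM in the mutant. Thbs1, a thrombospondin, was at 205 and 472 CPM and Tnc, tenascin C, at 68.4 and 179 CPM, which made 3 of 9 matricellular genes 2-fold higher. On the relative scale 6.08% of all measured genes were 2-fold or more higher and 3.84% lower. Fndc1, at 15.9 and 16.3 CPM, and Sparcl1, at 483 and 406 CPM, were near level. Among proteoglycans Ogn was at 285 and 734 CPM and Vcan, the versican of fetal matrix, at 363 and 166 CPM. Collagen genes outside the gate stayed closer together. Of 19 collagen and processing genes 1 was 2-fold higher on the relative scale, the crosslinking enzyme Lox at 458 and 716 CPM (plain difference 0.63, relative 1.04), and 1 was 2-fold lower, Loxl2 at 43.0 and 20.2 CPM. Col6a1 was at 696 and 934 CPM. Col1a1, a gate gene, was at 1724 and 1795 CPM. No basement membrane gene of 14 passed 2-fold on the relative scale, and that list's median was 0.05 relative and 0.46 plain.

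Signals that fibroblasts send to epithelium and vessels had a relative median of 0.48 over 10 measured genes. Slit2, a guidance ligand for Robo receptors (chr5:47983138-48307733), was at 246 CPM in the control and 2166 CPM in the mutant, but it has 299 kb of intron and its relative difference was 1.74. Slit3 was at 74.1 and 446 CPM. Vegfd, a lymphangiogenic factor, was at 259.9 and 359 CPM, and Vegfa at 107.2 and 107.1 CPM, 0 on the plain scale and 0.39 on the relative one. Sema3a was at 49.45 and 61.8 CPM, which the correction turned to -1.07. The FGF list had a relative median of 0.40, with Fgfr4 as its 1 gene of 12 past 2-fold, against 6.08% of all measured genes 2-fold higher. Etv5, a target of FGF signalling, was the lowest of that list at 20.8 and 8.14 CPM.

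Among BMP genes the ligands and the targets differed. Bmp4 was at 97.4 and 75.8 CPM and the receptor gene Bmpr2 at 104.6 and 148.5 CPM, with relative differences of 0.12 and -0.05. Id1, Id2 and Id3, targets of BMP signalling that block basic helix-loop-helix factors, were lower. Id1 (chr2:152736251-152737410) held 402 CPM (392 to 412) among control members and 36.5 CPM (31.9 to 41.5) among mutant members, an 11.0-fold difference. Id3 stood at 901 against 196 CPM, Id2 at 127 against 37.7 CPM, and the inhibitory Smad7 at 246 against 97.4 CPM. These were the 4 genes 2-fold lower among 12, and the ligand gene Bmp6, at 3.05 and 45.4 CPM and measured only through the mutant level, was the 1 higher. The shares over all measured genes were 3.84% lower and 6.08% higher. Id4, at 20.6 and 9.86 CPM, and Smad6, at 11.2 and 13.3 CPM, did not pass, with relative differences of -0.17 and -0.11. Id1 was also lower in mutant myofibroblasts, at 387 and 42.1 CPM, while epithelial cells held it at 291.5 and 169 CPM and endothelial cells at 226 and 191 CPM. The difference between cell types was not tested.

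The TGF-beta list had a relative median of 0.35 over 10 measured genes. The co-receptor gene Tgfbr3 was at 33.9 and 218 CPM. Hedgehog genes lay above 0 in 0 of 7 cases on the relative scale, with a median of -0.37 and none past 2-fold. On the plain scale 3 of the 7 were higher. With the last 2 limits of the gate dropped, 2 of 7 lay above 0 on the relative scale and 1 was 2-fold lower. Hhip, a gate gene, is not in these counts. Of all measured genes 49.9% lay above 0, 6.08% were 2-fold or more higher and 3.84% lower. Gli1, the target that reads out the pathway, was at 29.4 and 12.7 CPM, and the receptor gene Ptch1 at 151.5 and 128 CPM. Wnt genes outside the gate were balanced, 7 above 0 and 7 below, with Lef1 lowest at 36.55 and 18.0 CPM and Sfrp1 highest at 27.7 and 51.65 CPM. In the PDGF list Pdgfra was level at 127 and 128 CPM, and Pdgfrb was at 41.1 and 16.3 CPM. The IGF list changed sign with the scale, at 0.16 plain and -0.09 relative. In it Igf1 was at 41.9 and 34.0 CPM, and Igfbp7 and Igfbp6 were the 2 genes past 2-fold, at 57.5 and 168 CPM and at 1.08 and 16.9 CPM. Igfbp6 was measured only through its mutant level, so it could not have been called lower. The IGF median was 0.54 with the last 2 limits of the gate dropped, with 4 of 9 genes 2-fold higher, and -0.37 among cells with 0 UMIs of the G2 and M list. Of the retinoic acid genes the receptor gene Rara, at 74.9 and 30.7 CPM, was the 1 of 7 that was 2-fold lower.

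Transcription factors of lung mesenchyme differed little as a list, with a relative median of -0.14 and 2 of 21 past 2-fold on that scale, both lower. The share over all measured genes was 3.84%. Gata6 was at 38.1 and 11.4 CPM. Ebf1 was at 12.6 and 10.0 CPM with overlapping intervals, a plain difference of -0.17 that the correction turned to -1.52, and with the last 2 limits dropped it was at 16.7 and 19.55 CPM. Tbx4 was at 155.7 and 148 CPM, Tbx5 at 203.5 and 131 CPM and Foxf1, a hedgehog target, at 67.6 and 28.8 CPM. Klf4 was the highest of the list at 27.0 and 43.4 CPM. Fetal growth genes lay above 0 in 2 of 13 cases, against 49.9% of all measured genes, with a relative median of -0.32. Dlk1, an imprinted Notch-like protein, was at 555 CPM in the control and 134 CPM in the mutant, and the heparin-binding factors Mdk and Ptn were at 974.5 and 385 CPM and at 63.3 and 23.5 CPM. H19 was at 218 and 124 CPM. Peg3 was higher in the mutant, at 246 and 364 CPM.

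Lipid genes gave 2 patterns. Lipofibroblast genes were near level, with a relative median of 0.26. The lipid droplet coat gene Plin2 was at 310.2 and 307 CPM and G0s2, an inhibitor of lipolysis, at 1221 and 1435 CPM. Lpl, the lipase that takes up circulating fat, was the 1 of 10 past 2-fold, at 29.8 and 4.38 CPM. Of all measured genes 3.84% were 2-fold or more lower. Cholesterol synthesis genes lay above 0 in 2 of 12 cases, against 49.9% of all measured genes, with a relative median of -0.53. Hmgcs1, which makes HMG-CoA, was at 128 and 41.0 CPM, Fdps at 53.4 and 10.8 CPM and Cyp51 at 66.0 and 17.7 CPM.

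Complement genes had a relative median of 0.96 over only 5 measured genes, with Serping1, the C1 inhibitor, at 136 and 357 CPM. Without a filter on low values that median was 0.13. Of 6 measured interferon genes 2 passed 2-fold, both higher, Ifitm3 at 182 and 434 CPM and Bst2 at 5.78 and 16.0 CPM, against 6.08% of all measured genes. Bst2 was measured only through its mutant level, so 1 of the 2 could not have been called lower. Contractile genes had a median of 0.08 on the relative scale and -0.22 on the plain scale. Tagln, an actin-binding protein of smooth muscle, was at 76.4 and 262.5 CPM and Acta2, smooth muscle actin, at 891.5 and 583 CPM. Hypoxia genes had a relative median of 0.52, with Bnip3, a mitophagy receptor, at 34.0 and 66.4 CPM and the glycolytic Eno1 at 167 and 56.8 CPM. Of 15 oxidative phosphorylation genes and 15 ribosomal protein genes none passed 2-fold on the relative scale. Their plain medians were -0.47 and -0.41, close to that of other genes with short introns.

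**Figure D4:**
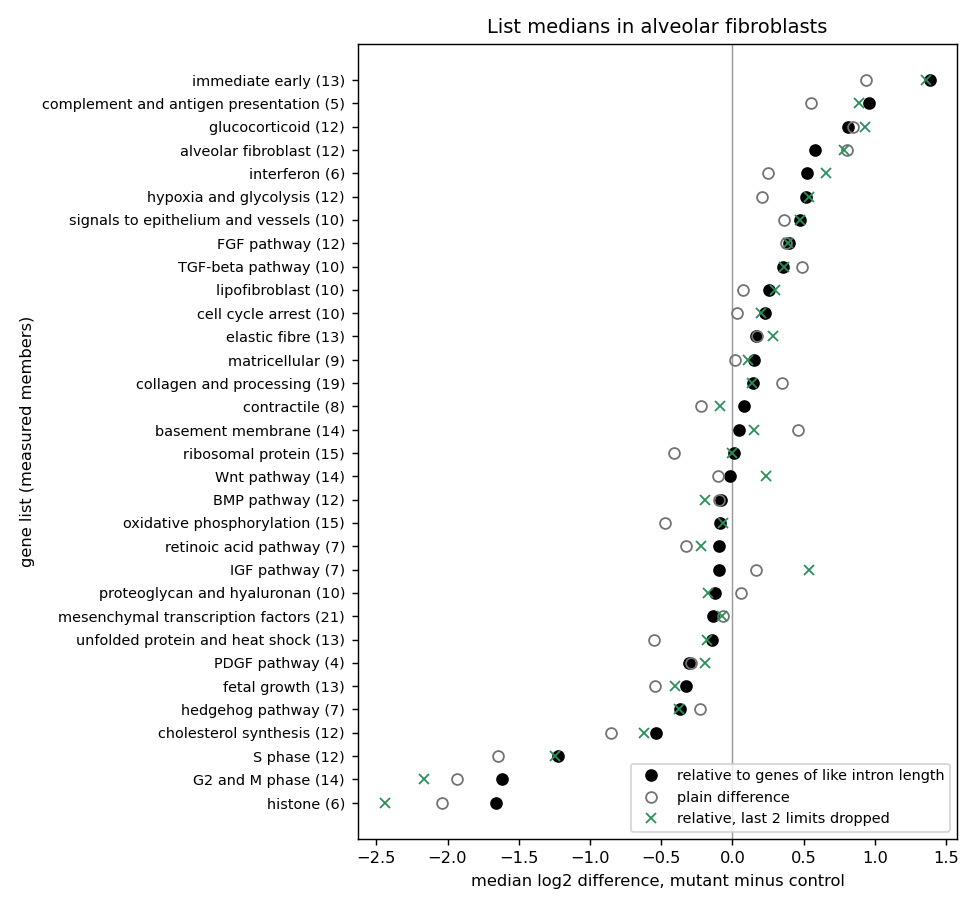
Each row is a gene list with its number of measured members, and each mark is the list's median log2 difference, mutant minus control: filled circles relative to genes of like intron length, open circles the plain difference, crosses the relative value with the last 2 limits of the gate dropped. Immediate early, complement and glucocorticoid genes lie farthest right and histone, G2 and M and S phase genes farthest left.

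Within each library the members were not uniform. Among 1046 genes compared for variance over mean of UMIs scaled to the median depth, the typical value was 1.32 in the control and 1.46 in the mutant. The 10 most variable in both were Malat1, H1f5, Mfap4, Jun, Fos, Eln, Cebpd, Egr1, Btg2 and G0s2. Mfap4 had values of 31.6 and 26.15, Eln of 27.0 and 31.0, and Fos of 27.4 and 20.05. Immediate early genes, a histone gene, elastic fibre genes and the lipid droplet gene G0s2 are thus among these 10. Per cell thinned to 5000 UMIs, the alveolar fibroblast list had a median of 47 UMIs in the control, with 10% of cells at 16 or fewer, and a median of 78 in the mutant, with 10% at 42 or fewer. Without thinning the medians were 92 and 180 UMIs.

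Alveolar fibroblasts were set against alveolar myofibroblasts within each library, where counting was the same on both sides. The myofibroblast gate, the same limits with 5 or more UMIs of Aspn, Hhip and Fgf18 and fewer than 3 of Tcf21 and Wnt2, held 110 control and 426 mutant cells. With all gate genes left out, 162 of 8746 genes (1.85%) were 2-fold or more higher in alveolar fibroblasts in both libraries and 292 (3.34%) were lower in both. Taken singly, the control library gave 180 higher (2.06%) and 348 lower (3.98%), and the mutant library 407 higher (4.65%) and 670 lower (7.66%). The highest was Limch1, at 512 CPM against 31.7 CPM in control myofibroblasts and at 1729 CPM against 66.9 CPM in mutant ones. Hsd11b1 came next, at 139 against 6.18 CPM and at 689 against 14.6 CPM. Both libraries thus gave differences of more than 3 on the log2 scale for these 2 genes. Gyg was at 1002 against 119 CPM in the control, G0s2 at 1221 against 189 CPM, and Slc27a6, a fatty acid transporter, at 215.5 against 24.7 CPM. Vegfd was at 259.9 against 30.1 CPM, Npnt at 433 against 63.4 CPM and Mfap4 at 5913 against 977 CPM in the same library. The cytoskeletal linker Macf1 and the small membrane protein gene Smim41 completed the 10.

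The genes lowest in alveolar fibroblasts against myofibroblasts were listed by the same rule turned round, a choice made after the values were seen. Htra1, a secreted protease, was at 11.9 CPM against 404 CPM in control myofibroblasts and at 19.9 against 557 CPM in mutant ones. Igf1, insulin-like growth factor 1, was at 41.9 against 705 CPM and at 34.0 against 977.5 CPM. Crh, corticotropin-releasing hormone, was at 1.40 against 139.9 CPM and at 2.35 against 531 CPM. Ednrb, an endothelin receptor, was at 40.3 against 932 CPM in the control. The mesothelial marker Upk3b was at 0.32 against 112 CPM in the control and 0.16 against 109 CPM in the mutant. The pericyte marker Rgs5 was at 11.5 against 138 CPM and at 1.10 against 132 CPM. The part of other cell types in the myofibroblast gate was not tested. Pdgfra, level between the libraries in alveolar fibroblasts, was at 438 CPM in control and 1139.9 CPM in mutant myofibroblasts. Eln was higher in myofibroblasts too, at 2007 and 10503.5 CPM.

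**Figure D5:**
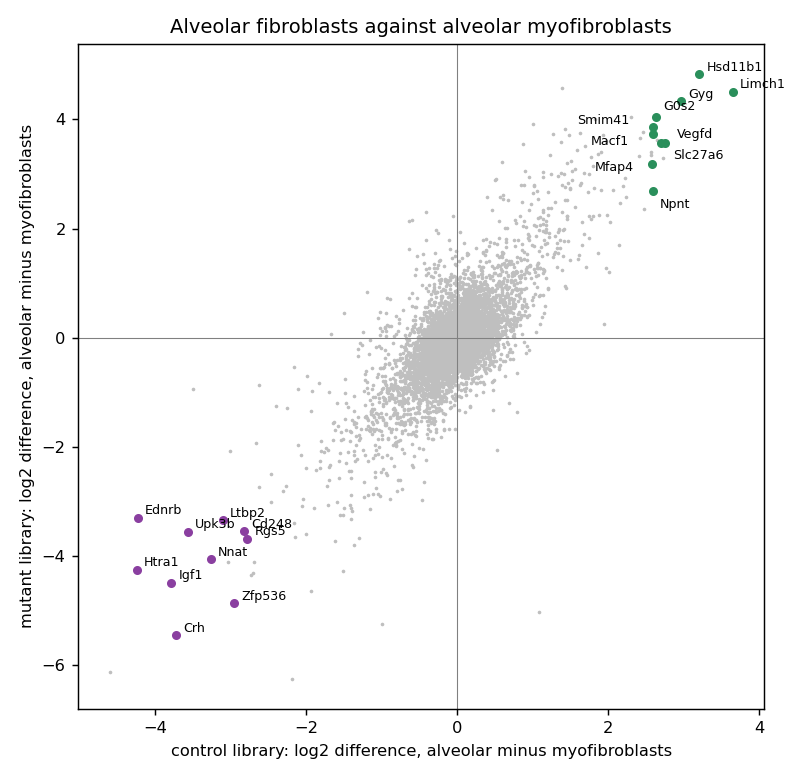
Each point is a gene, placed by its log2 difference between alveolar fibroblasts and alveolar myofibroblasts in the control library (horizontal) and in the mutant library (vertical), with 10 CPM added to each level. Green points are the 10 highest genes, led by Limch1 and Hsd11b1, and purple points the 10 lowest, among them Htra1 and Igf1.

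Adventitial fibroblasts, gated by 4 or more UMIs of Mfap5, Dpt and Cxcl14 with fewer than 3 of Tcf21 and Wnt2, numbered only 18 in the control and 34 in the mutant. The 18 control cells also held RNA of mesothelium, the lining of the lung, with Upk3b at 856 CPM (139 UMIs), Wt1 at 55.45 CPM, Lrrn4 at 49.3 CPM and Muc16 at 67.8 CPM. In the 34 mutant cells Upk3b was at 2.60 CPM and the other 3 had 0 UMIs. The part of these cells' mesothelial RNA in the comparison was not tested, and the group is named here by its gate only. Against them 119 of 8754 genes (1.36%) were 2-fold or more higher in alveolar fibroblasts in both libraries and 230 (2.63%) were lower. The control library alone gave 650 higher (7.43%) and 574 lower (6.56%), and the mutant library 303 higher (3.46%) and 411 lower (4.69%). Col25a1, a transmembrane collagen, led with 158.5 against 18.5 CPM in the control and 886 against 172 CPM in the mutant. Hsd11b1 was at 689 against 195 CPM, Gyg at 1240.4 against 396 CPM and Slc27a6 at 285 against 65.1 CPM in the mutant library. Plin2 was at 310.2 against 18.5 CPM in the control, where the adventitial value rests on 3 UMIs. Sulf1, a heparan sulphatase, was at 10.7 against 246 CPM in the control and 8.77 against 161 CPM in the mutant. Igf1 was at 41.9 against 394 CPM in the control and 34.0 against 443 CPM in the mutant. The lowest genes were again listed after the values were seen.

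RNA of other cell types was low in the members but not equal. The 13 epithelial markers summed to 341 CPM in the control and 596 CPM in the mutant, against 38823 and 96039 CPM in gated epithelial cells, with Sftpc at 245.6 and 296 CPM. All 9 that were measured were at levels typical of free RNA, 10 times or more below epithelial cells. Of 10 immune markers the sum was 65.4 and 19.25 CPM, with Laptm5 and Cd52 at 0 in the mutant. Red cell genes summed to 1435 and 1719.5 CPM, and 6 mesothelial markers to 4.45 and 70.1 CPM, of which Upk1b made 53.5 CPM while Wt1, Lrrn4 and Muc16 were at 0 in the mutant. Adventitial markers, 3 of 9 of them gate genes, summed to 453 and 902 CPM, and pericyte markers to 182 and 336.5 CPM, of which Ndufa4l2 made 88.1 and 290.2 CPM. Cartilage, heart muscle and neural lists summed to at most 10.3 CPM in either library. The part of these RNAs in the differences above was not tested.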

How the data were processed

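Single-cell RNA was measured with the 10x 3' v3 chemistry in 2 libraries, 1 a group. The deposited values are UMI counts per feature and barcode, made by the authors with Cell Ranger 6.0.1 (control) and 7.0.1 (mutant), per the file headers, on mouse and rat features; the submitters' processing notes name builds mm10 and rn6 and Seurat 4.3. Whether intronic reads were counted is not given in the sources used here. Gene positions and intron lengths came from GENCODE, mm10, and 99.96% of measured genes matched.

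Cells were gated as stated with no clustering. UMIs were summed over gated cells of a library and divided by the summed mouse UMIs (CPM). Differences are log2 of CPM plus 10, and 10 CPM in either library made a gene measured. With 1 library a group no test was made; intervals are exact Poisson for CPM and exact Clopper-Pearson for shares, at 95%, and cover counting error only. Genes were named by a fixed rule: the 12 highest and 12 lowest by relative difference at 100 CPM or more, the most abundant, highest and lowest member of each list, the 10 highest against each neighbouring type and the 10 most variable. Gate genes, mitochondrial, ribosomal protein, haemoglobin and sex-linked genes, unnamed gene models and, of 1998 eligible genes, 15 at 10 times or more in other cell types were left out of the naming. Other genes in the text were picked from the lists for their known roles after their values were seen. The cells and the gene lists were chosen with earlier results of these data known, so they are no independent support. No doublets were removed; the sources used here do not give whether the authors filtered them. An alternative left out cells with a Scrublet score of 0.2 or more. The scripts used Python 3.11.15, numpy 2.4.6, scipy 1.17.1, pandas 2.3.3 and scanpy 1.11.5 and were tested on simulated data. Values of a few list members are not reported here.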

Additional observations from a re-analysis of the deposited data

Results flagged for a closer look

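In 2 gene lists the mutant minus control difference went one way in alveolar fibroblasts and the other way in another gated type, counting medians of at least 0.5 in size on both sides and types of 50 cells or more in each library. Smaller opposite medians were not counted. Alveolar fibroblast genes had a relative median of 0.58 in alveolar fibroblasts and of -0.59 in alveolar myofibroblasts, where 8 of 9 measured genes lay below 0. In the other types the list's median was 1.18 in adventitial fibroblasts, 0.57 in epithelial cells, 0.14 in immune cells and -0.00 in endothelial cells. Cholesterol synthesis genes had a relative median of -0.53 in alveolar fibroblasts and of 0.69 in epithelial cells, where 11 of 13 lay above 0. It was -0.75 in myofibroblasts, -0.75 in endothelial cells, -0.62 in adventitial fibroblasts and -0.01 in immune cells. With 1 library a group neither difference between cell types was tested. The share of all measured genes above or below 0 was not counted in myofibroblasts or epithelial cells. In each type the relative median over all its measured genes is about 0 by construction.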

How the results depend on the processing

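The share of mouse barcodes gated in the control was 20.7% with a Tcf21 and Wnt2 limit of 2, 16.5% with a limit of 5, 6.99% after thinning every barcode to 5000 UMIs and 24.4% without the last 2 limits of the gate. In the mutant the last 2 settings gave 3.31% and 22.3%. The 577 genes higher in the mutant became 998 with 1 CPM added, 173 with 50 CPM added, 325 with a filter at 50 CPM, 894 without the intron correction and 76 among genes of at most 10 kb of intron. The 364 lower genes became 726, 93, 221 and 556 under the first 4 of these, 552 without a filter and 227 in cells with 0 UMIs of the G2 and M list. List medians lay above 0 in 17 of 32 lists, and in 9 of 23 among short-intron genes. The hypoxia and glycolysis median changed sign to -0.048 with the 50 CPM filter. Among list medians and named genes 741 values stayed within their limit of movement (0.25 for medians, 0.5 for genes), 126 moved and 1 reversed, where a reversal was counted only for a median that is 0.5 or more in size. Smaller medians also crossed 0 under some of the settings, with ranges of -1.52 to 0.03 for BMP, -0.37 to 0.16 for IGF, -0.74 to 0.55 for Wnt, -0.10 to 0.46 for basement membrane, -0.04 to 0.64 for cell cycle arrest, -0.29 to 0.24 for contractile, -0.39 to 0.27 for elastic fibre, -0.04 to 0.99 for matricellular, -0.71 to 0.01 for mesenchymal transcription factor, -0.47 to 0.04 for oxidative phosphorylation, -0.45 to 0.06 for proteoglycan and -0.41 to 0.13 for ribosomal protein genes, so these medians have no settled direction. Against myofibroblasts the 162 higher genes became 249 and 60 with 1 and 50 CPM added and 25 at 4-fold. Against adventitial fibroblasts the 119 became 255, 24 and 6, and 191 after thinning. Trimmed mean scaling shifted all log2 values by 0.03. Scrublet scores of 0.2 or more marked 2.08% and 4.02% of mouse barcodes, with 20 and 11 members among them. Dropping the last 2 limits and using 100 intron bins were chosen after the data were seen. The cause of these movements was not tested, except that fewer genes were tested under the 50 CPM filter and among short-intron genes. No paired analysis was possible because each group had 1 library. Depth limits genes near 10 CPM, and the number of embryos, software version and host cannot be separated by these 2 libraries.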
